A study of Mus musculus with 10 samples.

Results

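The comparison set the ezrin-disrupted K7M2 line that stably carries ezrin T567D against the matched line that carries an empty vector. The members are the 4 libraries, of 10 in the series, whose titles name these lines, 2 for each. All 12595 genes that passed a count filter, of 41743 gene names, were compared, and differences are T567D minus empty vector. K7M2 is a mouse osteosarcoma cell line, labelled as an osteoblast tumour of bone. Ezrin was disrupted in it with CRISPR/Cas9, and both lines carry this disruption. The empty-vector cells are also labelled as mock transfected. The lines were grown in DMEM with 10% FBS and were not treated. The other groups, of 2 libraries each, are unedited parental K7M2 and the disrupted cells with wild-type ezrin or with ezrin T567A, where alanine at the residue takes no phosphate. They entered the same fit, and the wild-type line gives a second reference that shares no library with the empty-vector line. Each construct was present in 1 stable line, and all 4 disrupted lines have the same tag in their titles, taken here to mean 1 clone. An effect of the construct and a trait of the line therefore cannot be told apart. No label states whether a line's 2 libraries stem from different cultures. The p-values then reflect only how far these libraries differ, and that spread may be technical.

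Ezrin, moesin and radixin are linkers that bind membrane proteins with their amino-terminal domain and actin filaments with their carboxy-terminal tail. In the closed form the tail covers the membrane-binding domain. Phosphorylation of a conserved threonine near the end of the tail holds the protein open, and aspartate at that place, as in T567D, is used to mimic the phosphate. In osteosarcoma, ezrin is known for its part in metastasis to the lung.

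The labels do not give the species of the ezrin constructs. If a construct is not of mouse, its codon may differ from the one below, and how far its reads count towards mouse Ezr is not known. The mouse codon of T567 is shown because T567 is the residue that names the constructs. It is ACG, in capitals, in exon 13 of 13, at chr17:6739363-6739365 of GRCm38, on the minus strand, within the window chr17:6739351-6739377.
Ezr codon of T567: gacaagtataagACGctgcggcaaatc
Counts per gene show neither the codon carried by a transcript nor the edit, and they do not separate vector transcripts from endogenous ones.

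Total counts lay between 16790455 and 17669729 in the 4 libraries, and between 14679424 and 18230763 in all 10. In the T567D libraries 16035 and 16059 gene names had a count, against 15435 and 15343 in the empty-vector libraries. Levels are CPM (counts scaled to a common library total after TMM normalisation), and 3 counts, the floor used here, equal 0.17 to 0.175 CPM in the 4 libraries. Changes are log2 fold changes ± standard error (SE). A gene was called at an adjusted p under 0.05 by the quasi-likelihood test of edgeR after Benjamini-Hochberg adjustment.

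Of the 12595 genes tested, 2239 were called, or 17.8%, with 1188 higher in T567D (9.43%) and 1051 lower (8.34%). Over 2-fold there were 265 (2.1%), of which 235 were higher (1.87%) and 30 lower (0.238%). Genes under 1 CPM leaned to higher values in T567D, with a median log2 fold change of 0.37, while the median of all tested genes was -0.01. Among genes of at least 10 CPM, 9% were higher and 10.8% lower, and over 2-fold 27 were higher and 10 lower. Upper-quartile scaling moved the split of calls to 1375 higher and 795 lower. Calls fell to 991 without empty-vector replicate 2, to 1129 without empty-vector replicate 3, to 1463 without T567D replicate 1 and to 1108 without T567D replicate 3. With wild-type ezrin as the reference, T567D gave 169 calls, or 1.34%, with 103 higher (0.818%) and 66 lower (0.524%). That comparison uses the same T567D libraries. Its count was 64 without wild-type replicate 1, 46 without wild-type replicate 3, 82 without T567D replicate 1 and 102 without T567D replicate 3. It was 311 and 304 without T567A replicate 2 and T567A replicate 3.

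Reads counted to mouse Ezr were more frequent in the T567D line than in the empty-vector line. Ezr, on chromosome 17 from 6738041 to 6782784, was at 204 and 181 CPM in the T567D libraries and at 72.4 and 72.9 CPM in the empty-vector libraries. The change was 1.41 ± 0.066 (adjusted p = 3.2e-12), and both T567D libraries lay above both empty-vector libraries. The T567D level also lay above the parental one of 164 and 166 CPM (0.22, adjusted p = 0.0046). It lay below the wild-type line, at 230 and 233 CPM (-0.27 ± 0.062, adjusted p = 0.032), a call lost without either empty-vector library (adjusted p = 0.057 and 0.056), either wild-type library (0.2 and 0.31) or T567D replicate 3 (0.36). It lay below the T567A line, at 248 and 253 CPM (-0.38, adjusted p = 5e-05).

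Of the related linker genes, Msn alone passed the test. Msn, which encodes moesin and lies on the X chromosome, was at 642 and 674 CPM in T567D and at 530 and 527 CPM in the empty-vector line (0.32 ± 0.056, adjusted p = 0.00051). It stood at the same distance above the wild-type line, at 534 and 520 CPM (0.32 ± 0.056, adjusted p = 0.0036). That second call was lost without wild-type replicate 3 (adjusted p = 0.11) or T567D replicate 3 (0.058). The 43 genes of at least 5 CPM within 10 Mb on either side of Msn had a median change of 0.24 against the empty vector and 0.17 against wild type, which left Msn 0.08 above its neighbours. Rdx, which encodes radixin, was at 247 and 227 CPM against 242 and 249 (-0.05 ± 0.062, adjusted p = 0.63). Nf2, which encodes the related tumour suppressor merlin, was at 152 and 154 CPM against 142 and 147 (0.08 ± 0.062, adjusted p = 0.41). Among 26 tested genes of ezrin's membrane partners, scaffolds and kinases, 6 (23.1%) were higher, Msn included, and 2 (7.69%) lower. The shares of all genes were 9.43% and 8.34%. Those called include the sialomucin gene Podxl, at 7.51 and 6.14 CPM against 3.5 and 3.01 (1.07 ± 0.17). Another is Ppp1ca, a catalytic subunit of protein phosphatase 1 (0.37 ± 0.062). The Ppp1ca neighbours had a median of 0.21. Without empty-vector replicate 2 or T567D replicate 1, 3 were higher, and without any 1 of the 4 libraries 0 or 1 were lower.

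**Figure D1:**
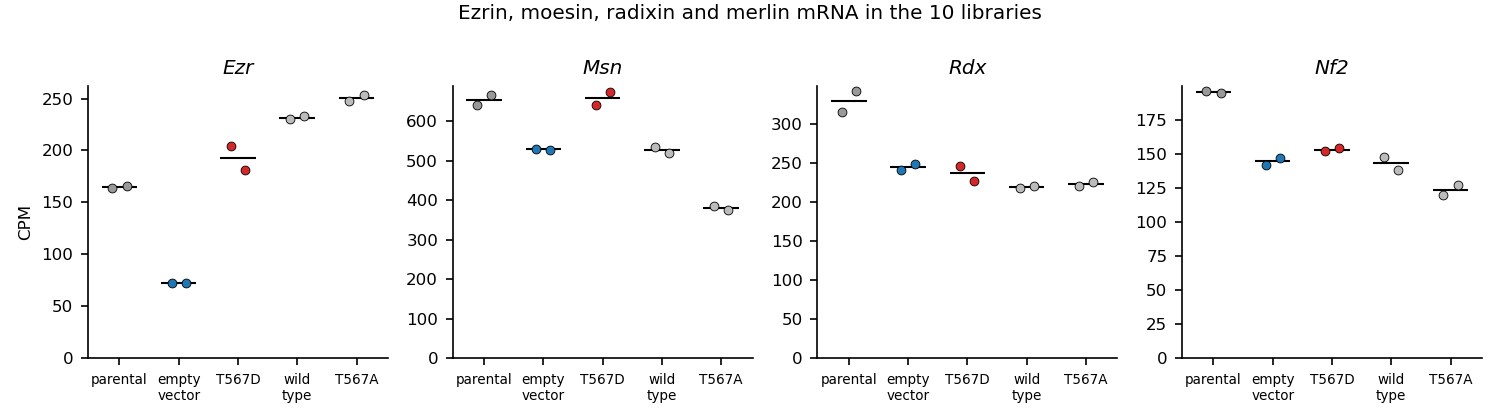
CPM of Ezr, Msn, Rdx and Nf2 in each of the 10 libraries, with a point for each library and a bar at the mean of each line. Ezr in the T567D line (204 and 181 CPM) lies above the empty-vector line (72.4 and 72.9 CPM) and below the wild-type line, while Rdx and Nf2 lie close in both.

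The called genes were spread unevenly over the genome. On chromosome 19, 29.1% of tested genes were higher and 2.14% lower, on the X chromosome 23.9% and 1.07%, and on chromosome 8, 18.7% and 1.02%. Chromosome 13 went the other way, with 5.01% higher and 24.4% lower. The other 16 chromosomes had 4.61% to 15.5% higher and 2.94% to 13.7% lower. Chromosomes 8, 19 and X together held 12.3% of the tested genes and 30.2% of those called higher. Chromosome 13 held 3.86% of the tested genes and 11.2% of those called lower.

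The shifts were small and the same in direction in each of the 4 pairings of a T567D with an empty-vector library. For genes of at least 5 CPM the median change was 0.15 on chromosome 19 (0.14 to 0.16 over the pairings), 0.17 on X (0.13 to 0.2), 0.12 on chromosome 8 (0.1 to 0.13) and -0.15 on chromosome 13 (-0.17 to -0.13). On chromosome 13 the change was concentrated between 80 and 120 Mb, where the medians of 2 bins of 20 Mb were -0.31 and -0.36. There 65.5% and 75.8% of genes were called lower. On X the first 60 Mb had bin medians of -0.07 to 0.01, and the bins from 60 Mb on had 0.18 to 0.33. Parts of other chromosomes also leaned higher. From 100 to 140 Mb of chromosome 11 the bin medians were 0.14 and 0.1, with 20.7% and 16.7% called higher. From 20 to 60 Mb of chromosome 15 they were 0.11 and 0.04, with 25% called higher in each. Against the wild-type line, the median was 0 on chromosome 13, -0.03 on chromosome 19, 0.05 on chromosome 8 and 0.09 on X. Between 60 and 100 Mb of X it was 0.23 and 0.28. Genomic DNA was not analysed here, and the part of chromosome number in these values was not tested. A gene of chromosomes 8, 13, 19 or X is therefore given below with the median change of its neighbours, unless it was near the detection floor. Neighbours are the genes of at least 5 CPM within 10 Mb on either side.

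**Figure D2:**
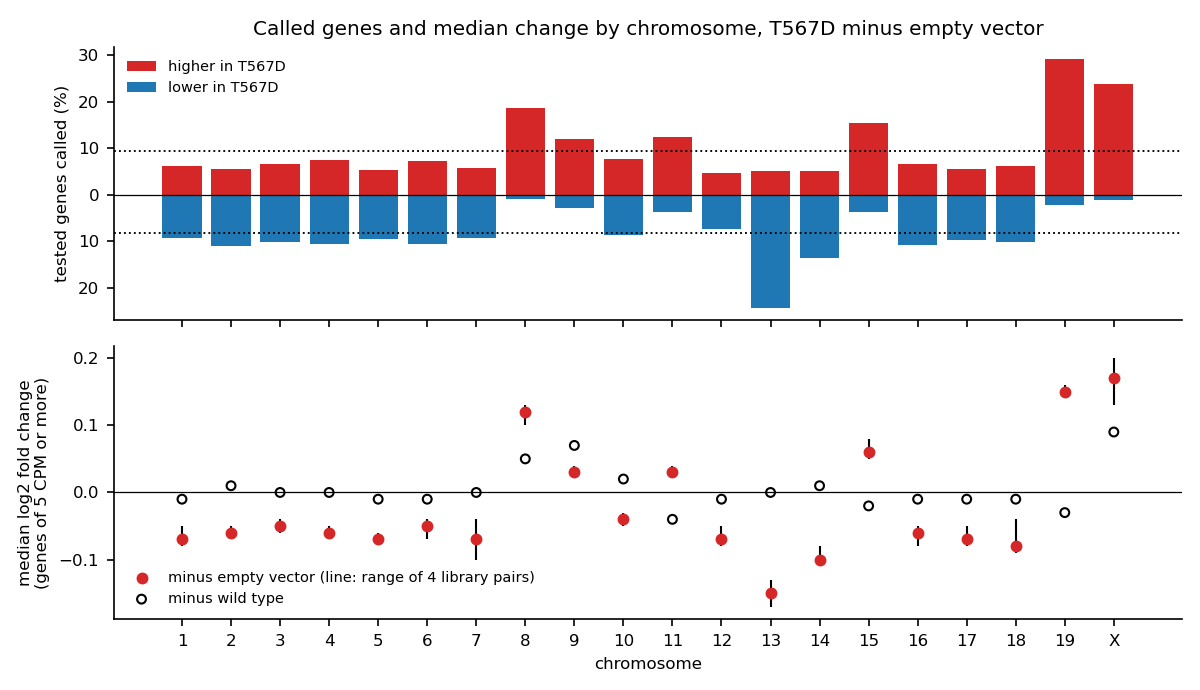
Top, percent of tested genes of each chromosome called higher (red, upwards) or lower (blue, downwards) in T567D than in the empty-vector line, with dotted lines at 9.43% and 8.34%, the shares of all genes. Bottom, median log2 fold change of genes of at least 5 CPM against the empty vector (red, line for the range of the 4 library pairs) and against wild type (open circles). Chromosomes 8, 19 and X lie high and chromosome 13 low against the empty vector, while against wild type chromosome 13 lies at 0.

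Among genes of at least 10 CPM, the largest increase was of Lcp1. Lcp1, which encodes the actin-bundling protein plastin 2, was at 16.6 and 14.8 CPM in T567D and 4.07 and 3.99 CPM in the empty-vector line (1.96 ± 0.14, adjusted p = 3.6e-09). It was also higher than in the wild-type line, at 8.96 and 8.97 CPM (0.81 ± 0.12, adjusted p = 0.00086). Egln3, an oxygen-sensing prolyl hydroxylase gene, was at 24.3 and 25.2 CPM against 7.69 and 9.43 (1.53 ± 0.11), and it too was above wild type (0.68 ± 0.1, adjusted p = 0.00087). In all 3 lines named here the libraries of these genes did not overlap. Cpe, which encodes carboxypeptidase E of secretory granules, was at 49.5 and 48.6 CPM against 17.3 and 16.7 (1.53 ± 0.079, neighbour median 0.13). Its difference from wild type (0.43, adjusted p = 0.0022) was lost without wild-type replicate 1 (adjusted p = 0.056).

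The smooth muscle actin gene Acta2 was at 58.6 and 59.6 CPM against 23.7 and 20.9 (1.41 ± 0.09, adjusted p = 6.3e-10), far above the 0.13 median of its neighbours on chromosome 19. Igfbp4, which encodes an IGF-binding protein, was at 30.8 and 28.9 CPM against 12.1 and 11.6 (1.33 ± 0.093). Arhgef6, a Rac and Cdc42 exchange factor gene on X, was at 11.6 and 10.2 CPM against 3.5 and 2.95 (1.75 ± 0.15, neighbour median 0.01). The leucine-rich proteoglycan genes Omd and Ogn, which encode osteomodulin and osteoglycin and lie close together on chromosome 13, rose by 1.29 ± 0.13 and 1.23 ± 0.072, where the median of their neighbours was -0.05. Ramp3 (1.46), a co-receptor gene of the calcitonin receptor family, Bace1 (1.32), Syt7 (1.31, neighbour median 0.21), Anpep (1.28) and Selenop (1.23) complete the 14 largest increases with Ezr. Each kept its call whichever library was left out. Of these 14, Lcp1, Egln3, Cpe, Acta2 and Syt7 were called higher than in wild type, and Ezr and Igfbp4 lower. For Acta2 the wild-type call was lost without wild-type replicate 3 (0.37), T567D replicate 1 (0.086) or T567D replicate 3 (0.099). For Syt7 it was lost without either parental library (0.061 for each), either wild-type library (0.2 and 0.34) or T567D replicate 1 (0.5). For Igfbp4 it was lost without any single empty-vector, wild-type or T567D library (0.053 to 0.26).

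The largest decrease was of Cdc20b, a paralog of the mitotic activator gene Cdc20, on chromosome 13 from 113035111 to 113091195. It had 601 and 585 counts in the empty-vector libraries and 0 and 2 counts in the T567D libraries, a ratio of 584 with an exact 95% counting interval of 161 to 4820. Parental, wild-type and T567A libraries had 0 counts of it. The neighbouring cyclin O gene, Ccno, was at 4.1 and 5.38 CPM against 11.2 and 11.6 (-1.27 ± 0.15), and Foxd1 at 11.6 in both libraries against 29.2 and 26.2 (-1.26 ± 0.1). Both lie in the lower part of chromosome 13, with neighbour medians of -0.4 and -0.34, and Cdc20b also had -0.4.

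Neutrophil-attracting chemokine genes were also among the largest decreases. Cxcl5 was at 25 and 30.3 CPM in T567D and 152 and 148 CPM in the empty-vector line (-2.44 ± 0.091, adjusted p = 2e-13). Cxcl1 was at 39.4 and 39.1 CPM against 129 and 124 (-1.69 ± 0.069, adjusted p = 3.2e-13). The wild-type line, at 32.1 and 31.9 CPM of Cxcl5 and 47.1 and 48 CPM of Cxcl1, lay close to T567D, and neither difference passed the test (adjusted p = 0.46 and 0.068). T567A, at 113 and 103 CPM of Cxcl1, lay above T567D (-1.46 for T567D minus T567A, adjusted p = 8.5e-13).

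Map6, which encodes a microtubule-stabilising protein, was at 5.2 and 4.32 CPM against 17.3 and 15.1 (-1.76 ± 0.14), and was also below wild type (-0.9 ± 0.15, adjusted p = 0.0022). Adamts2, the procollagen N-proteinase gene, was at 6.93 and 6.25 CPM against 13.4 and 13.8 (-1.04 ± 0.13), yet was above the wild-type line, at 3.26 and 2.97 CPM (1.08 ± 0.16, adjusted p = 0.00088). T567D thus lay between the empty-vector and wild-type levels for Adamts2, and beyond the wild-type level for Map6. Itgb7 was also called below wild type (-0.37), a call lost without wild-type replicate 1. Zc3h12a (-1.26), an RNase gene that limits inflammatory mRNAs, Nfkbiz (-1.10), an atypical NF-kB inhibitor gene, Sirpa (-1.22), Nkain1 (6.01 and 7.13 CPM against 12.1 and 14.1), the immunoproteasome gene Psmb8 (-0.90), Itgb7 (-0.84) and Prl2c2 (-0.84) complete the 14. Each kept its call whichever library was left out. Prl2c2, on chromosome 13 with a neighbour median of -0.09, has near-identical copies, so its level is uncertain.

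**Figure D3:**
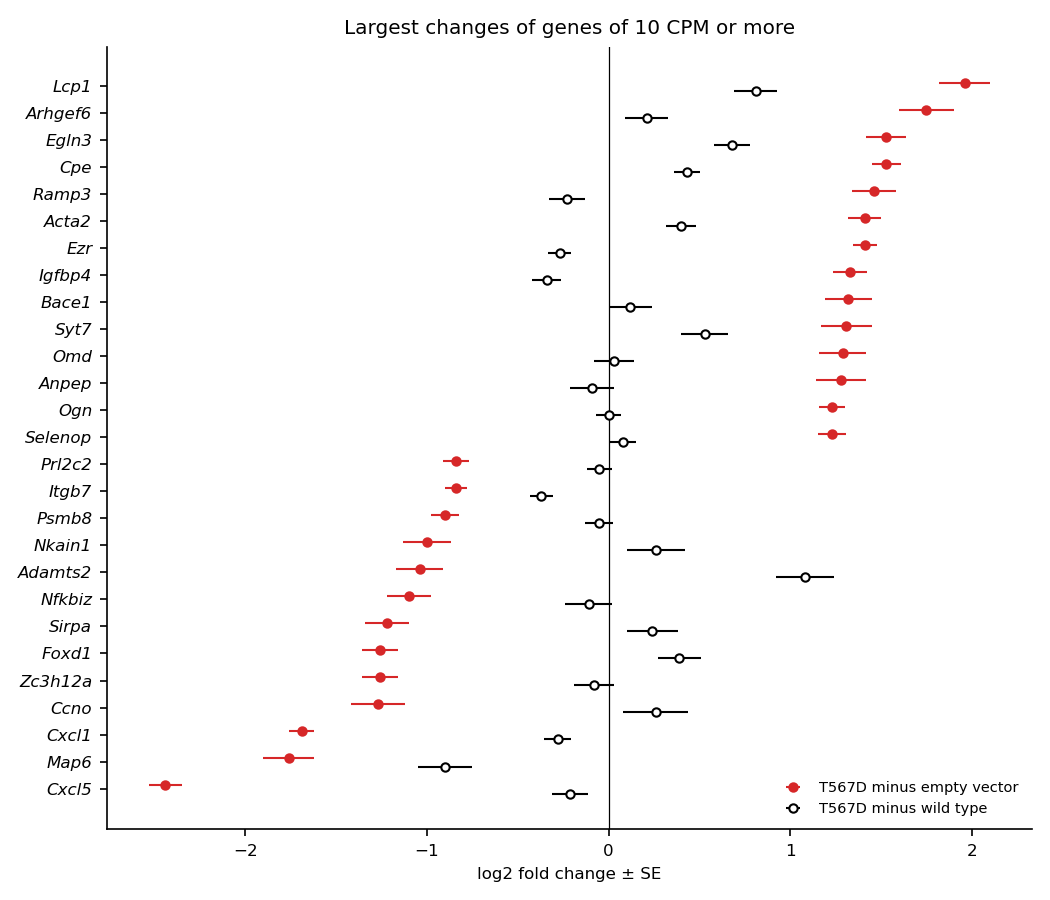
Log2 fold change ± SE of the 14 genes with the largest increase and 13 of the 14 with the largest decrease, for T567D minus empty vector (filled) and T567D minus wild type (open). Cdc20b is left out because its T567D libraries had 0 and 2 counts. The open points of Lcp1, Egln3, Map6 and Adamts2 lie farthest from 0.

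Against the empty vector, genes of the extracellular matrix were the group with the most increases. Of 30 tested glycoprotein and proteoglycan genes, 15 were higher, 1 was lower and 14 did not pass, a share of 50% higher against 9.43% of all genes. Their median change was 0.37 (-0.01 for all genes). The median was 0.48 when each gene was set against its neighbours. Fewer were called higher without empty-vector replicate 2 or T567D replicate 3, and the median was 0.33 to 0.43 with single libraries left out. Against wild type 4 of the 30 were called, each higher, with a median of 0.1 (0.818% of all genes were higher there). Fn1, which encodes fibronectin, was at 263 and 268 CPM against 118 and 139 (1.04 ± 0.09, adjusted p = 1.2e-06). It was also above the wild-type line, at 173 and 162 CPM (0.66 ± 0.089, adjusted p = 0.00087), and above T567A, at 49.9 and 51.4 CPM (2.39, adjusted p = 1.2e-11). Dcn, the decorin gene, was near the floor in the empty-vector line, at 0.113 and 0.289 CPM against 2.37 and 1.34, and Postn, the periostin gene, was at 2.02 and 1.46 CPM against 0.452 and 0.521 (1.83 ± 0.37).

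Of 21 tested collagen chains, 8 were higher (38.1% against 9.43% of all genes) and 1 lower (4.76% against 8.34%), with a median of 0.32. Against wild type 1 of the 21, Col1a1, was called higher and 1 lower, with a median of 0.1. Col1a1, the main chain of bone collagen, on chromosome 11 from 94936224 to 94953042, was at 675 and 794 CPM against 320 and 327 (1.18 ± 0.07, adjusted p = 1.8e-10). The wild-type line had 272 and 247 CPM, below both (1.5 ± 0.07 for T567D minus wild type, adjusted p = 1.4e-11), and parental cells had 1805 and 1827. Col1a1 in T567D was thus the highest of the ezrin-disrupted lines, with T567A at 598 and 609 CPM (0.28, adjusted p = 0.002). Col5a2, a regulator of fibril width, was at 778 and 791 CPM against 596 and 617 (0.37 ± 0.06), and Col12a1, a fibril-associated chain, rose by 0.60 ± 0.12. Higher collagens numbered 4 without empty-vector replicate 2 and 5 without empty-vector replicate 3.

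Enzymes that mature collagen had 7 higher (35%) and 2 lower (10%) of 20. The lysyl oxidase genes moved apart. Lox fell to 177 and 184 CPM against 254 and 256 (-0.50 ± 0.079), and Loxl4 was at 207 and 196 against 144 and 151 (0.45 ± 0.065), with a neighbour median of 0.11. P4hb, the shared subunit of prolyl hydroxylase, was at 1615 and 1605 CPM against 1265 and 1251 (0.36 ± 0.061, neighbour median 0.15). Without empty-vector replicate 2, empty-vector replicate 3 or T567D replicate 3 the higher ones numbered 3, 4 and 4, and without empty-vector replicate 3 or T567D replicate 3 there was 1 lower. Against wild type 0 of the 20 were called by edgeR, limma or DESeq2, and 3 had an unadjusted p under 0.05 with edgeR.

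Matrix proteases and their inhibitors had 9 higher (28.1%) and 4 lower (12.5%) of 32. The count higher was 5 without either empty-vector library, and the count lower was 2 without either of these or T567D replicate 3. Mmp15, a membrane-type metalloproteinase gene on chromosome 8, was at 31.8 and 35.9 CPM against 17.7 and 18.1 (0.92 ± 0.092, neighbour median 0.14). Plat, the tissue plasminogen activator gene, was at 47.1 and 54.3 CPM against 28.5 and 30.6 (0.78 ± 0.085, neighbour median 0.09). Against wild type 4 of the 32 were called higher and 2 lower. Mmp15 was among the higher (0.5) and Plat among the lower (-0.43), so Plat in T567D lay between the empty-vector and wild-type levels. The wild-type calls of Mmp15 and Plat were each lost with some single libraries left out.

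Adhesion receptors had 7 higher (31.8% against 9.43% of all genes) and 2 lower (9.09% against 8.34%) of 22. The integrin genes Itgb3 (3.12 and 3.21 CPM against 0.961 and 0.578), Itga11 (5.49 and 6.72 against 2.03 and 1.27) and Itga10 (6.99 and 10.3 against 3.73 and 3.35) rose by 2.03, 1.88 and 1.28. Itga10 and Itga11 encode collagen-binding subunits. Ncam1, a neural cell adhesion molecule gene, rose by 0.73 ± 0.085, and Itgb7 fell from 347 and 334 CPM to 190 in both T567D libraries. The count of higher receptors was 4 without empty-vector replicate 2, and the count lower was 1 without that library or T567D replicate 3.

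Of 32 tested actin and contractility genes, 13 were higher (40.6% against 9.43%) and 2 lower (6.25% against 8.34%), with a median of 0.10. On chromosomes 8, 19 and X lay 5 of the 32, of which 4 were higher. Off these and chromosome 13, 9 of 26 were higher. Cnn2, a calponin gene, was at 190 and 195 CPM against 127 and 136 (0.55 ± 0.062, adjusted p = 3e-06), with a neighbour median of 0.01. Flna, which encodes the actin cross-linker filamin A on X, was at 1071 and 1073 CPM against 800 and 857 (0.37 ± 0.062), and Cfl1, the cofilin gene on chromosome 19, rose by 0.37 ± 0.061. Their neighbour medians were 0.26 and 0.21. Of the actin genes 6 were higher without empty-vector replicate 2, and 1 was lower without that library or either T567D library.

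The CArG box, the site bound by serum response factor, was searched on both strands in RefSeq promoters of GRCm38.p6, from 250 bases before to 50 after the start. A gene was counted if any of its promoters held the site. Whether a motif's presence went with a gene's change was not tested, for this motif or for those below. The CArG box was found for 5 of 28 actin genes and for 1.51% of the 9735 tested genes with a promoter. Of all 32851 promoters taken singly, 1.63% held it. The Cnn2 promoter is shown with its match in capitals, at chr10:79988350-79988649 on the plus strand.
Cnn2 promoter: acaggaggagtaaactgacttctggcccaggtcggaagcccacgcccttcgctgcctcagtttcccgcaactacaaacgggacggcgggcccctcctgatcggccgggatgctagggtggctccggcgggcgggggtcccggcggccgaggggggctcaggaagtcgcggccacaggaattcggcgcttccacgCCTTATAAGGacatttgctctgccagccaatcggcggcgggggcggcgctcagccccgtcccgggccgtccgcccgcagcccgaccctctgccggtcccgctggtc

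Of the markers that define osteoblasts, 7 of 10 were tested. Col1a1, Alpl (13.9 and 11.9 CPM against 5.2 and 6.07) and Sparc (0.20) were higher and Spp1 lower (-0.21). Sparc did not pass when empty-vector replicate 2 (adjusted p = 0.085), empty-vector replicate 3 (0.17) or T567D replicate 3 (0.2) was left out, nor did Spp1 whichever of the 4 libraries was left out (0.071 to 0.11). Sp7, a defining transcription factor of the lineage, was at 0 counts in all 4 libraries. Among wider osteoblast regulators, 4 of 17 were higher (23.5%) and 3 lower (17.6%), against 9.43% and 8.34% of all genes. The count lower fell whichever of the 4 libraries was left out. Bmp2, a bone-inducing ligand gene, was at 20 and 18.4 CPM against 10.6 and 11.7 (0.78 ± 0.11). In bulk RNA, fewer cells of a type and less RNA per cell cannot be told apart.

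Of the macrophage markers, 5 of 10 were tested, with Lyz2 higher and Csf1r lower, and Adgre1, Tyrobp and Fcgr3 were at 0 in all 4 libraries. Lyz2 was at 2.25 and 1.05 CPM against 0.226 and 0.752 (adjusted p = 0.037), and did not pass when empty-vector replicate 2 (0.26), T567D replicate 1 (0.29) or either wild-type library (0.062) was left out. Csf1r, the CSF1 receptor gene, was at 1338 and 1352 CPM against 1549 and 1594 (-0.22 ± 0.056, adjusted p = 0.0082). That call was lost without empty-vector replicate 3 (adjusted p = 0.091), T567D replicate 1 (0.058) or T567D replicate 3 (0.051). Summed levels of this list were 1377 and 1391 CPM in T567D and 1589 and 1632 CPM in the empty-vector line. Endothelial, epithelial, lymphocyte, chondrocyte, muscle and adipocyte markers had 1 or 2 tested genes each, and no list summed to over 7.8 CPM in a library. Fabp4, an adipocyte marker, was at 7.74 and 6.19 CPM against 1.98 and 1.97 (1.82 ± 0.22), with Adipoq, Plin1, Lpl and Cidec at 0 in all 4.

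**Figure D4:**
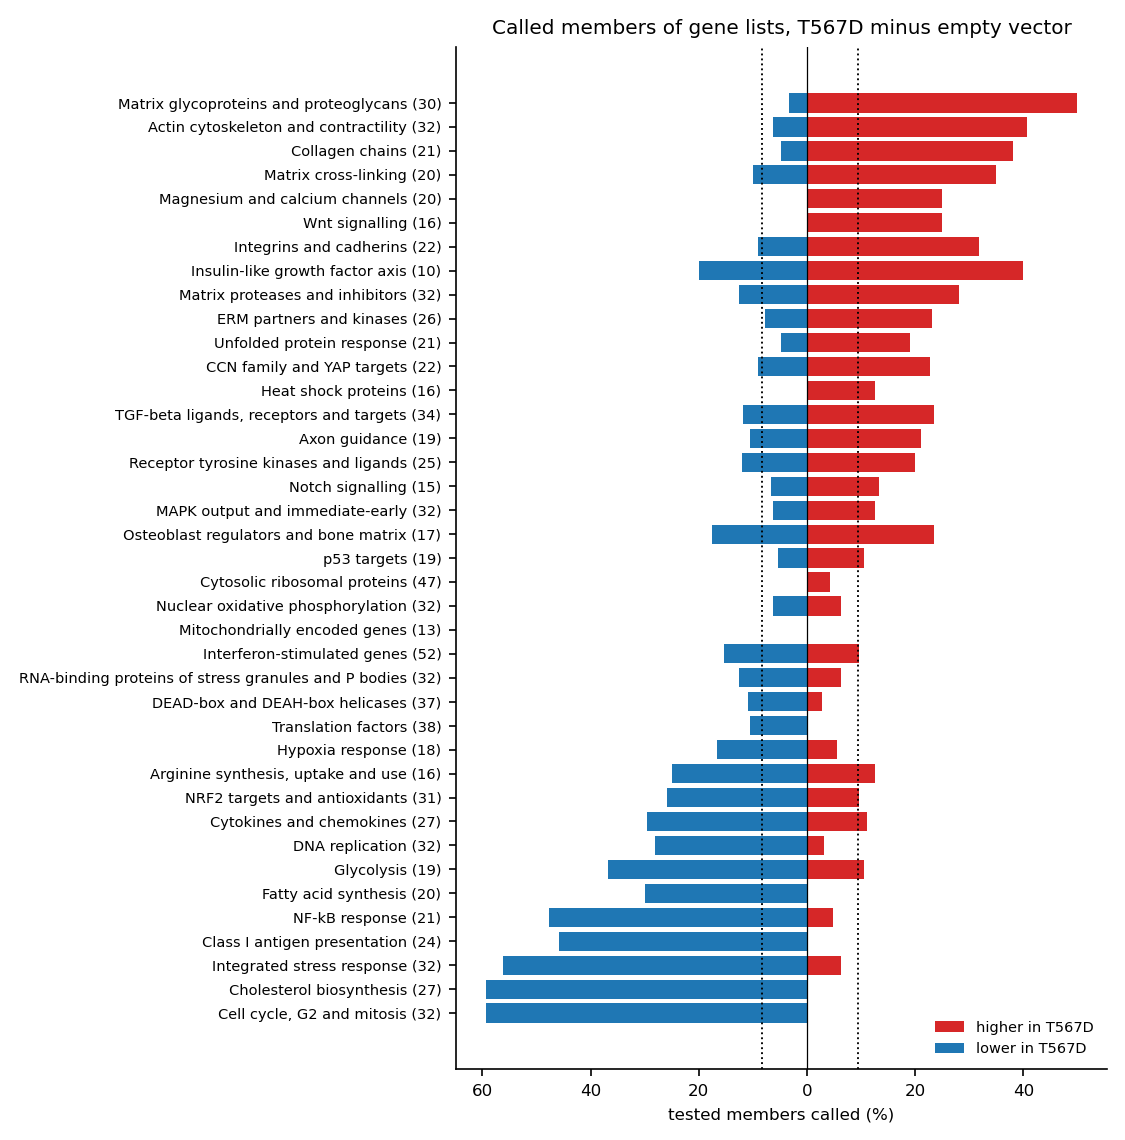
Percent of tested members called higher (red, to the right) or lower (blue, to the left) in T567D than in the empty-vector line, for each list with at least 10 tested genes (number tested in parentheses), with dotted lines at the shares of all genes (9.43% and 8.34%). Matrix, actin and collagen lists lie at the top, and mitosis, cholesterol, stress response, class I and NF-kB lists at the bottom.

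Among inflammatory genes, more were called lower than higher in T567D. Of 27 tested cytokine and chemokine genes, 8 were lower, or 29.6% against 8.34% of all genes, and 3 higher (11.1% against 9.43%). Their median change was -0.05. Besides Cxcl5 and Cxcl1, Lif was at 8.26 and 9.29 CPM against 15.9 and 15.4 (-0.84 ± 0.12) and the monocyte chemokine gene Ccl7 at 32.2 and 31.7 against 48.8 and 47.7 (-0.59 ± 0.083). In the other direction, the interferon-inducible chemokine gene Cxcl11 was at 6.87 and 6.19 CPM against 3.17 and 3.76 (0.92 ± 0.16). Only 1 member of the list was higher without empty-vector replicate 2 or T567D replicate 3. NF-kB regulators and targets had 10 lower (47.6% against 8.34%) and 1 higher (4.76% against 9.43%) of 21, with a median of -0.25. Among them were Bcl3 (-0.74 ± 0.14), Traf1 (-0.62 ± 0.087) and Tnfaip2 (-0.42 ± 0.063). The one that rose was Icam1, an adhesion gene, at 2.54 and 1.87 CPM against 0.848 and 1.1, which did not pass when empty-vector replicate 2 or T567D replicate 1 was left out (adjusted p = 0.1 for each). Without T567D replicate 1, 5 were lower. Against wild type 0 of the 21 were called by edgeR, limma or DESeq2, and 4 had an unadjusted p under 0.05 with edgeR.

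Of 18 NF-kB list genes with a promoter, 10 held the kappa B consensus there, as did 12.3% of the tested genes with a promoter. Among these 10, Nfkbia, Tnfaip2, Bcl3 and Sod2 were called lower and the others did not pass. The Cxcl1 promoter, at chr5:90890995-90891294 on the plus strand, is shown from the cytokine list, not as 1 of these 10, because Cxcl1 is the chemokine gene with the largest decrease that has an entry. Its 2 overlapping matches, on opposite strands, are in capitals.
Cxcl1 promoter: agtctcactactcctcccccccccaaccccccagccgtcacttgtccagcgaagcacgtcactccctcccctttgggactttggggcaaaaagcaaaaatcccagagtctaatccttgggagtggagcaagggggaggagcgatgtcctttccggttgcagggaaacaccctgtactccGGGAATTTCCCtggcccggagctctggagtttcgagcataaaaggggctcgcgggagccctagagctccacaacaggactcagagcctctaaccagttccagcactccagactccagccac

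Genes of class I antigen presentation had 11 of 24 lower (45.8% against 8.34% of all genes). The others did not pass, and the median was -0.17. Psmb8 was at 64.7 and 72.2 CPM against 134 and 121 (-0.90 ± 0.075), and the peptide transporter gene Tap2 at 62.2 and 70.7 against 91.7 and 84.1 (-0.40 ± 0.075). The count lower was 4 without either empty-vector library and 5 without either T567D library. Class I genes have near-identical copies, so single levels are uncertain. Against T567A 23 of the 24 were lower in T567D (22.5% of all genes were lower there), and against wild type 0 were called by edgeR, limma or DESeq2, with 1 at an unadjusted p under 0.05 in edgeR.

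Against T567A 51 of 52 interferon-stimulated genes were lower in T567D (22.5% of all genes were lower there). They did not move as a group against the empty vector. In that comparison 5 of the 52 were higher (9.62% against 9.43% of all genes) and 8 lower (15.4% against 8.34%). The median was -0.06. Ifit3 was at 167 and 172 CPM against 119 and 114 (0.54 ± 0.063), and Ifit1 at 221 and 219 against 166 and 157 (0.44 ± 0.058). Both lie on chromosome 19, where their neighbours had a median of 0.13. The guanylate-binding gene Gbp2 fell by 0.37 on the log2 scale. The lower members numbered 3 and 2 without empty-vector replicates 2 and 3, 4 without either T567D library and 5 without either wild-type library.

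Most of the cholesterol synthesis genes were called lower in the fit with every library, each by less than 2-fold. Of 27 tested, 16 were lower (59.3% against 8.34%) and 11 did not pass, 5 of these with a positive change, with a median of -0.25. The pathway builds sterols from acetyl-CoA through mevalonate. Its early enzyme gene Hmgcs1 was at 85.9 and 83.9 CPM against 139 and 142 (-0.73 ± 0.067, adjusted p = 1.9e-07). It lies on distal chromosome 13, where its neighbours had a median of -0.4. Off chromosomes 8, 13, 19 and X, 12 of 18 members were lower, with a median of -0.27. These include Fdps, the farnesyl diphosphate synthase gene (192 and 194 CPM against 293 and 254, -0.50 ± 0.069). Against wild type 1 of 27 was called, higher, and against T567A 22 were lower in T567D.

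Of the desaturase genes in the fatty acid synthesis list, Scd2, Fads1 and Fads2 were lower, and Scd1 and Fads3 did not pass the test. Scd2 was at 284 and 272 CPM against 411 and 404 (-0.55 ± 0.068), Fads2 at -0.31 ± 0.063 and Fads1 at -0.30 ± 0.063. The 3 lie on chromosome 19, where neighbours were higher, with medians of 0.11 to 0.21. The list as a whole had 6 of 20 lower (30% against 8.34% of all genes) and a median of -0.04. The sign of the median turned with the setting (-0.15 to 0.01), and fewer were lower without either empty-vector library or T567D replicate 3.

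The core of the sterol regulatory element was searched as TCACNCCAC on both strands. It was present for 1 of 19 cholesterol genes and for 1.23% of the tested genes with a promoter. That 1 gene is Hmgcs1, whose promoter, at chr13:119690101-119690400 on the plus strand, is shown with the match in capitals.
Hmgcs1 promoter: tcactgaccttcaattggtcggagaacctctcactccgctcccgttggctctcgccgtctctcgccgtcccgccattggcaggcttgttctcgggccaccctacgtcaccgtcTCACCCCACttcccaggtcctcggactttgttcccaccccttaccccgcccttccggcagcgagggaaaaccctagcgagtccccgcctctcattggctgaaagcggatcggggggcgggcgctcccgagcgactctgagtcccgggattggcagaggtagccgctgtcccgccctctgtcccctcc

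Glycolytic genes had 7 lower (36.8% against 8.34% of all genes) and 2 higher (10.5% against 9.43%) of 19, with a median of -0.12. Eno2, an enolase gene, was at 4.45 and 5.55 CPM against 8.82 and 10.3 (-0.93 ± 0.15), Tpi1 fell by 0.40 and Ldha by 0.36 on the log2 scale. Pfkfb3, an activator of glycolytic flux, was at 7.05 and 7.66 CPM against 3.9 and 4.8 (0.76 ± 0.15). Without empty-vector replicate 2, 4 were lower, and 1 was higher whichever of the 4 libraries was left out. Of 18 hypoxia genes, 3 were lower (16.7%) and 1 higher (5.56%), the latter Egln3. Egln3 went against the direction of Pdk1 (13.9 and 13.1 CPM against 19.8 and 23.1, -0.67 ± 0.1).

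Most of the mitotic genes tested were lower in T567D, each by less than 2-fold. Of 32 tested, 19 were lower (59.4% against 8.34% of all genes) and 13 did not pass. The median was -0.21, and all 32 had a negative change in the fit with every library. Cyclin B1, Ccnb1, was at 209 and 194 CPM against 297 and 301 (-0.57 ± 0.062), with a median of -0.34 among its neighbours on chromosome 13. Cdc25b, a phosphatase gene of mitotic entry, was at 60.9 and 62.7 CPM against 82.7 and 80.9 (-0.40 ± 0.072). Bub1b, a spindle checkpoint kinase gene, was at 128 and 123 CPM against 162 and 152 (-0.32 ± 0.062). Off chromosomes 8, 13, 19 and X, 18 of 29 were lower. The count was 8, 9 and 4 without empty-vector replicate 2, empty-vector replicate 3 and T567D replicate 3, and against wild type 1 member was called, lower.

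The cell cycle homology region, searched as TTTGAA on both strands, was present for 18 of 26 mitotic genes and 14.8% of tested genes with a promoter. The CCAAT box, searched as CCAAT on both strands, was present for 22 of 26 and 43.9%. The Bub1b promoter, at chr2:118597961-118598260 on the plus strand, is shown as an example of several that hold both, in capitals. Its TTTGAA match lies after the start. The CCAAT box is on the minus strand.
Bub1b promoter: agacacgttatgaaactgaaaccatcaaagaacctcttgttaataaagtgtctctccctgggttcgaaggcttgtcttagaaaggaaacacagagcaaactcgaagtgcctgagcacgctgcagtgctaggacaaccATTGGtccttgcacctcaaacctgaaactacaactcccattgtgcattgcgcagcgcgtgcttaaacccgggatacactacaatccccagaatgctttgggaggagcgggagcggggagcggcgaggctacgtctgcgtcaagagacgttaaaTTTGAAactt

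DNA replication genes had 9 lower (28.1% against 8.34% of all genes) and 1 higher (3.12% against 9.43%) of 32, with a median of -0.15. The higher one, Pola1 on X, a DNA polymerase subunit gene, changed by 0.24 with a neighbour median of 0.26, and did not pass when either empty-vector library (adjusted p = 0.19 and 0.13), either wild-type library (0.053 and 0.052) or T567D replicate 1 (0.42) was left out. Orc1, which encodes a subunit of the origin recognition complex, was at 18.1 and 17.7 CPM against 30.1 and 30.8 (-0.76 ± 0.097), and Rrm1, of ribonucleotide reductase, at 373 and 336 against 435 and 450 (-0.32 ± 0.063). Leaving out empty-vector replicate 2, empty-vector replicate 3 or T567D replicate 3 left 4 lower.

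Targets of the integrated stress response, in which Atf4 drives amino acid synthesis and import, had 18 lower and 2 higher of 32. That was 56.2% lower and 6.25% higher, against 8.34% and 9.43% of all genes, with a list median of -0.23. Atf4 itself was at 351 CPM in both T567D libraries against 451 and 434 (-0.33 ± 0.058). Trib3, a pseudokinase gene, was at 30.4 and 28.9 CPM against 48.7 and 44.4 (-0.65 ± 0.082), Shmt2, a mitochondrial serine enzyme gene, at 395 and 406 against 527 and 533 (-0.40 ± 0.06), and Pck2 at 61.8 and 64.3 against 86.4 and 83.5 (-0.43 ± 0.072). Nupr1, a stress-induced regulator gene, went against them, at 66.6 and 71.2 CPM against 51.2 and 48.8 (0.46 ± 0.089). The lower members numbered 8 without empty-vector replicate 2 and 11 without T567D replicate 1. Against wild type 0 of the 32 were called by edgeR, limma or DESeq2, and 7 had an unadjusted p under 0.05 with edgeR.

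Genes of the endoplasmic reticulum stress response had 4 higher (19%) and 1 lower (4.76%) of 21 and a median of 0.11. Of all genes, 9.43% were higher and 8.34% lower. Ern1, the sensor gene, was at 28.1 and 30.5 CPM against 21.6 and 21.9 (0.43 ± 0.087, neighbour median 0.11). The count higher was 2 without empty-vector replicate 2, and the lower member lost its call whichever of the 4 libraries was left out. NRF2 targets had 8 lower (25.8%) and 3 higher (9.68%) of 31. Slc7a11, the cystine transporter gene, was at 13.9 and 11.5 CPM against 18.9 and 20.8 (-0.64 ± 0.12). Without empty-vector replicate 2 or T567D replicate 3, 3 and 4 were lower, and with any 1 of the 4 libraries left out 0 to 2 were higher.

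Most signalling lists had calls in both directions, where 9.43% of all genes were higher and 8.34% lower. TGF-beta genes had 8 higher (23.5%) and 4 lower (11.8%) of 34, with a median of 0.01 and a sign that turned with the setting (-0.05 to 0.05). Ltbp3, which holds latent TGF-beta in the matrix, was at 275 and 283 CPM against 151 and 155 (0.86 ± 0.062, adjusted p = 4.7e-09, neighbour median 0.21). Pmepa1, a feedback inhibitor gene of the pathway, was at 38.1 and 54.9 CPM against 24.1 and 21.6 (1.02 ± 0.16), and Inhba, an activin subunit gene, at 23.2 and 22.9 against 15 and 15.6 (0.59 ± 0.1, neighbour median -0.09). The higher members numbered 3, 5 and 5 without empty-vector replicate 2, empty-vector replicate 3 and T567D replicate 3, and 2 were lower without empty-vector replicate 3.

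CCN and YAP target genes had 5 higher and 2 lower of 22, and with any 1 of the 4 libraries left out 2 or 3 were higher and 1 was lower. In the fit with every library 22.7% of the list were higher and 9.09% lower, against 9.43% and 8.34% of all genes. Ccn1, a matricellular protein gene, was at 1227 and 1294 CPM against 932 and 931 (0.44 ± 0.059), and Ccn4 at 116 and 137 against 91.1 and 90 (0.48 ± 0.076). Ccn3 was at 39.1 and 33.5 against 51.5 and 53.7 (-0.53 ± 0.086). The IGF axis had 4 higher (40% against 9.43% of all genes) and 2 lower (20% against 8.34%) of 10. Igf1 itself was at 1.39 and 1.69 CPM against 0.17 and 0.116 (3.36 ± 0.5), at or under the floor in the empty-vector line. Only without empty-vector replicate 2, of the 4 libraries, did the 2 lower members keep their calls. Wnt genes had 4 of 16 higher (25% against 9.43% of all genes), a count that fell whichever of the 4 libraries was left out. Among the 4 was the co-receptor gene Lrp5, at 28.2 CPM in both libraries against 17.4 and 16.3 (0.75 ± 0.093, neighbour median 0.21).

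Of 25 receptor tyrosine kinases and ligands, 5 were higher (20% against 9.43% of all genes) and 3 lower (12% against 8.34%). Leaving out empty-vector replicate 2 left 2 higher, and 1 was lower whichever of the 4 libraries was left out. Pdgfb, a platelet-derived growth factor gene, was at 29.1 and 34.9 CPM against 23.1 and 27.1 (0.35 ± 0.098, adjusted p = 0.016) and above the wild-type line, at 19.7 and 19.4 (0.71 ± 0.1, adjusted p = 0.00051). The first difference did not pass when empty-vector replicate 2 (adjusted p = 0.23) or T567D replicate 3 (0.26) was left out. The second was kept with each library left out in turn. Of 16 tested genes of arginine synthesis, uptake and use, 2 were higher (12.5%) and 4 lower (25%). The count lower fell whichever of the 4 libraries was left out. Ass1, the argininosuccinate synthase gene, was 1 of the 2, at 7.45 and 7.13 CPM against 3.73 and 2.95 (1.12 ± 0.15), where parental cells had a mean of 244 CPM. Cftr, a chloride channel gene, was at 13.4 and 14.4 CPM against 7.63 and 7.35 (0.89 ± 0.16).

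**Figure D5:**
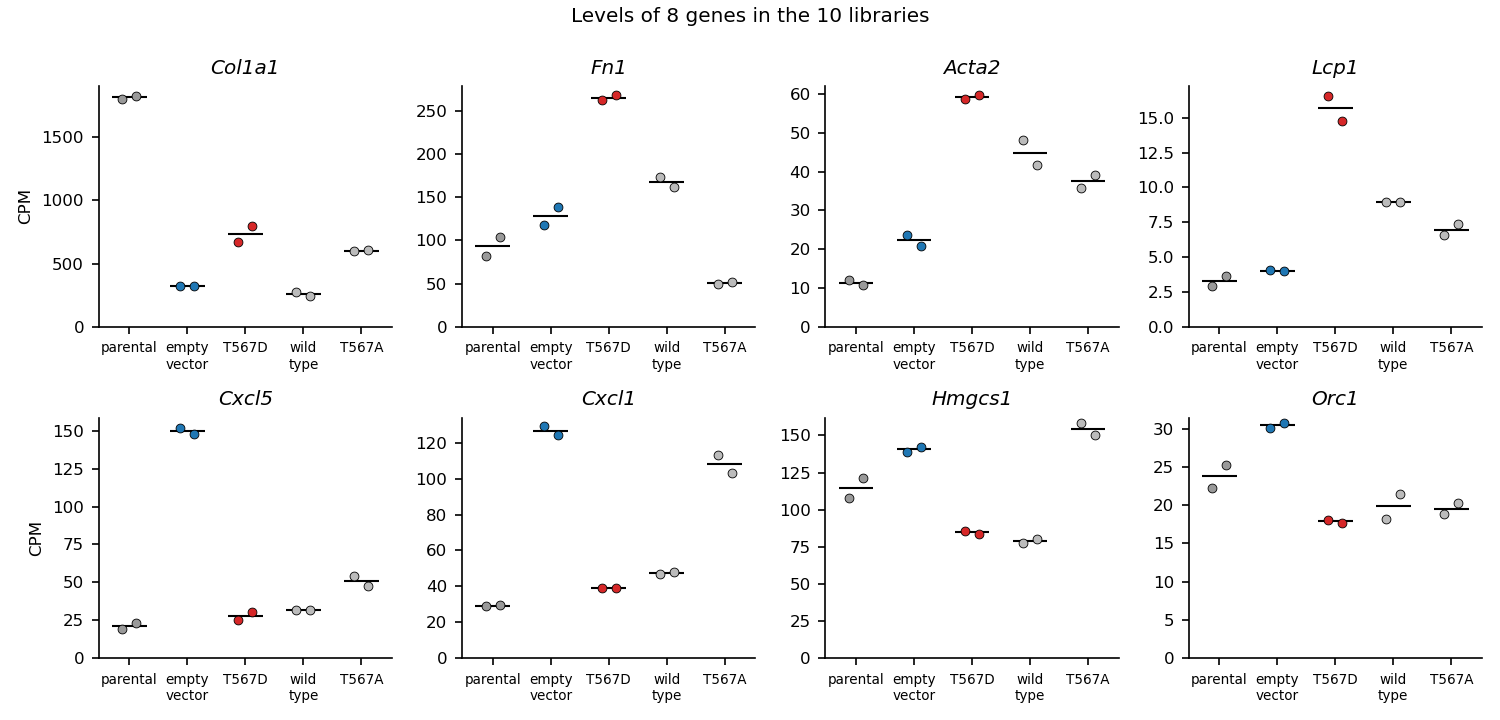
CPM in each of the 10 libraries of Col1a1, Fn1, Acta2 and Lcp1, higher in T567D than in the empty-vector line, and of Cxcl5, Cxcl1, Hmgcs1 and Orc1, lower in it, with a point for each library and a bar at each line's mean. For Cxcl5, Hmgcs1 and Orc1 the T567D points lie near those of the wild-type line, while for Col1a1, Fn1 and Lcp1 they lie above them.

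The lists given next had at most 20% of members called, against 17.8% of all genes. Of all genes, 9.43% were higher and 8.34% lower. Of 47 cytosolic ribosomal protein genes 2 were higher (4.26%), and of 38 translation factors 4 were lower (10.5%), with no other call in either list. Of 37 DEAD-box and DEAH-box helicases, 1 was higher (2.7%) and 4 lower (10.8%). Of 32 RNA-binding genes of stress granules and P bodies, 2 were higher (6.25%) and 4 lower (12.5%). The helicase gene Dhx29 lies in the lower part of chromosome 13, and its change of -0.41 ± 0.062 matched the -0.4 median of its neighbours. Nuclear genes of oxidative phosphorylation had 2 higher (6.25%) and 2 lower (6.25%) of 32, and MAPK output genes 4 (12.5%) and 2 (6.25%) of 32. The p53 targets had 2 (10.5%) and 1 (5.26%) of 19, and Notch genes 2 (13.3%) and 1 (6.67%) of 15. With any 1 of the 4 libraries left out, these lists had 0 to 5 members higher and 0 to 3 lower. Of 13 mitochondrially encoded genes 0 were called by the edgeR fit used here, limma or DESeq2. In that edgeR fit 0 had an unadjusted p under 0.05 (1 with DESeq2), with a median of 0.23 and a range of -0.03 to 0.81. Across the other settings as many as 10 were called higher, and the median reached 0.65. Mitochondrially encoded genes took 1.01% and 1.24% of counts in the T567D libraries and 1.09% and 0.87% in the empty-vector libraries.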

How the data were processed

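Per the labels' protocols, poly-A RNA was made into stranded libraries by dUTP marking and sequenced on DNBSEQ. For each library the authors deposited a table with a whole-number read count and an RPKM value per gene. The submitters' processing notes name GRCm38 as the genome build. Aligner, counting tool, annotation and strand setting: not given in the sources. Reads of overlapping, antisense or near-identical genes therefore cannot be told apart.

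Counts of all 10 libraries were fitted together with a mean for each of the 5 lines in edgeR 4.0.16 (R 4.3.3), with TMM scaling and the robust quasi-likelihood test, which leaves 5 residual degrees of freedom. The filter was filterByExpr, at 10 counts and a total of 15, and Benjamini-Hochberg adjustment ran over all 12595. The script was tested on simulated data. The members and gene lists were chosen with earlier results of these data known. Genes were named by rule: Ezr, Msn, Rdx and Nf2; the 14 largest increases and the 14 largest decreases among annotated called genes with non-overlapping libraries whose higher line averaged 10 CPM or more; and, in lists with at least 25% or at least 4 members called, up to 6 called members of at least 1 CPM. Exceptions are stated, and some genes that the rule names are not reported here. Exact 95% counting intervals and the floor of 3 counts cover counting error only. Other settings tried were DESeq2 1.42.0, upper-quartile and RLE scaling, other filters and thresholds, a replicate block, fewer libraries, and limma 3.58.1 on the log2 of the deposited RPKM plus 1 or 0.1.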

Additional observations from a re-analysis of the deposited data

How the results depend on the processing

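Counts of genes moved more than directions. For T567D minus empty vector, DESeq2 called 1428 genes, 777 higher and 651 lower, with 144 over 2-fold. An adjusted p under 0.01 left 1087, 610 higher and 477 lower, with 160 over 2-fold, and a test against a 1.5-fold change left 100, 86 higher and 14 lower, with 89 over 2-fold. Over 2-fold there were 96 with a filter of 5 CPM in 2 libraries, and with limma 20 on log2(RPKM + 1) and 164 on log2(RPKM + 0.1), where the pseudocount shrinks low values. Upper-quartile scaling called 1375 higher and 795 lower. Leaving out each library in turn gave 991 to 2818 calls, 542 to 1518 higher, 445 to 1300 lower and 169 to 288 over 2-fold. Where a line was left with 1 library, it was assumed to vary like the other lines.

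T567D and the empty-vector line share only replicate number 3, so pairing by number could not be checked between them. Between lines that share both of their numbers, same-numbered libraries did not deviate together, with correlations of -0.10 to -0.01. The fit with a replicate block gave 1141 calls, 642 higher and 499 lower.

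For T567D minus wild type there were 300 calls with no filter, 69 at an adjusted p under 0.01, 7 against a 1.5-fold change, 89 and 63 with limma on log2(RPKM + 1) and log2(RPKM + 0.1), and 303 without the T567A line. Leaving out single libraries gave 46 to 311. Against a 1.5-fold change, 643 genes were called for T567D minus T567A and 1751 for T567D minus parental. The cause was not tested in these cases.

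Of 210 called genes named by rule, 120 kept the call whichever library was left out, and 119 kept it in all 21 settings other than the 1.5-fold test and the 0.01 threshold. Rdx, which was not called, ranged from -0.11 to 0.01 with single libraries left out, the latter without T567D replicate 3 (adjusted p = 0.95, edgeR).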

Other observations

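Some genes were near the detection floor in 1 of the lines. Of the called genes, 35 had 3 counts or fewer over both libraries of a line, 32 of them higher in T567D and 3 in the empty-vector line. Calls at low levels leaned the same way in general. Of all tested genes under 1 CPM in the higher line, 6.32% were called higher and 0.584% lower. At 1 to 10 CPM, 12.2% were called higher and 2.76% lower. The highest T567D total among the 32 was 44 counts. The genes named here were chosen after their values were seen. Alx4, a homeobox gene of skull and limb development, had 17 and 15 counts in T567D and 0 and 1 in the empty-vector line, a ratio of 32.5 (exact 95% counting interval 5.43 to 1320). The parental, wild-type and T567A lines had 54, 86 and 4 counts of Alx4 in all. Mmp2, the gelatinase A gene, had 13 and 12 counts against 1 and 0 (ratio 25.4, 4.16 to 1040), where the parental libraries held 4072 in all. Mmp2 was thus far below its parental level in both lines. Prex1, a Rac exchange factor gene, had 21 and 23 counts against 1 and 2 (ratio 14.9, 4.78 to 75). Des, the desmin gene, had 7 and 6 counts against 0 and 0, at least 4.4-fold higher against a floor of 3 counts over the line. Ramp2, a co-receptor gene related to Ramp3, went the other way, with 1 and 2 counts in T567D and 6 and 12 in the empty-vector line (5.9-fold higher in the latter, 1.72 to 31.3).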
